A study of Mus musculus with 8 samples.

Results

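Leukocytes of the dura mater 24 h after stroke were set against those of control dura, 1 library a side, by summing the unique molecular identifiers (UMIs, each marking 1 captured RNA molecule) of every gene within each cluster of cells that the authors had named. The dura libraries held 7329 of the 32457 annotated cells of the series, 2811 from control dura and 4518 from dura 24 h, in 2 of 8 libraries. Clusters with at least 30 cells in both libraries were compared, which kept 14 of the 21 clusters and 7136 of the 7329 cells. The 7 clusters with fewer cells (Macro_1, Micro_1, Micro_2, Micro_3, SAMC, stress_Micro and stress_Myeloid) are not described.

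Both libraries came from adult male C57BL/6 mice with no transgene named in the labels. The dura 24 h mice had a transient middle cerebral artery occlusion (MCAO), in which a filament blocks the artery for a set time and is then withdrawn. The occlusion time behind this library is not given in the sources used here. According to the study's methods the single-cell controls were naive mice, although figure legends call controls sham-operated. Against naive mice an effect of surgery and one of ischemia cannot be told apart. In both groups leukocytes in the circulation were stained by intravenous anti-CD45, and CD45iv-CD45+ cells, called tissue-resident leukocytes, were sorted and run on the 10x Chromium 3′ assay. Repeat experiments were pooled per tissue according to the study, with a number of mice stated per tissue but not per library.

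The dura is the outer meninx and lies under the skull, outside the brain tissue that the artery supplies. It holds border-associated macrophages, dendritic cells, mast cells, B cells, T cells and group 2 innate lymphoid cells (ILC2), which release type 2 cytokines such as IL-5 and also the neuropeptide precursor Calca. Interferons signal through receptors to transcription factors, which switch on a common set of antiviral and antigen presentation genes in nearly every leukocyte. That set serves as a readout of interferon exposure in tissues.

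Control dura held 6867696 UMIs and dura 24 h 10645238 UMIs, with a median of 1676 and 1200 UMIs per annotated cell. The kit list of the study gives version 2 for control dura and version 3 for dura 24 h, but the barcodes go against it. Of the 479 different first 7 bases among the dura 24 h barcodes, 479 were also found in control dura and 129 in the brain 72 h library, which is listed as version 3 and had 958. Brain 24 h replicate 2 is listed as version 2, but 942 of its 944 starts were found in brain 72 h and 125 in control dura, and the part of kit chemistry in the values given for that library was not tested. Control dura and dura 24 h shared 18 whole barcodes. Of 34 pairs of a cluster and a defining marker, 27 had the marker among the 2 highest of the 14 clusters in both libraries. Among the exceptions was Fn1 in Granulo_2, at rank 6 and rank 4 with 1 and 3 UMIs, while S100a8 ranked first in that cluster in both libraries. The marker Clec9a of mDC1 was present at 65 and 36 UMIs.

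With 1 library a side there is no replicate check and no test. Levels are given as UMIs and as CPM, the UMI count scaled to a common total per cluster and library, and a ratio is the log2 of the CPM of dura 24 h over control dura after adding 0.5 UMIs to each sum. Intervals in brackets are exact 95% intervals and cover counting error only. A gene counted as measured in a cluster if its mean level would give at least 30 UMIs in the shallower sum, and as higher or lower from a 2-fold ratio on. Over all clusters, 354 of 21917 measured pairs of a gene and a cluster were higher (1.62%) and 445 lower (2.03%), and the median ratio of all pairs was 0.02. Of 1724 genes measured in at least 5 clusters, 3 were higher across clusters (0.174%) and 4 lower across clusters (0.232%), meaning 2-fold or more in at least 75% of the clusters that measured them and 2-fold the other way in none.

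The gene that was lower most widely was Serinc3, which encodes a membrane protein of the serine incorporator family (ENSMUSG00000017707, GRCm38 chr2:163623272-163645131, minus strand). Serinc3 was measured in all 14 clusters and was at least 2-fold lower at 24 h in 13 of them, with a median log2 ratio of -1.35 and a range from -1.68 in mDC2 to -0.71 in mast cells. In Macro_2 its count went from 2194 UMIs (1436 CPM) to 898 UMIs (565 CPM), a log2 ratio of -1.34 [-1.46 to -1.23]. In ILC2 it stood at 495 UMIs (1785 CPM) in control dura and 409 UMIs (666 CPM) at 24 h. Macrophages and lymphocytes thus held the same direction for this gene, and its level was below control in every cluster.

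The lower level of Serinc3 was also seen outside the dura. Of 1191 genes measured in at least 5 pia clusters, 6 were higher across clusters (0.504%) and 4 lower (0.336%), and Serinc3 was the single gene found in the dura and pia sets of the same direction. In pia 24 h over control pia it was at least 2-fold lower in 13 of 13 clusters, with log2 ratios from -3.70 to -1.46. In the brain it was lower in 6 of 6 clusters in each of the 24 h libraries, with ratios from -3.03 to -1.24 in replicate 1 and from -2.62 to -1.38 in replicate 2, both against the same control brain library. Between the 2 brain 24 h libraries the median was 0.07 over 8 clusters. In all 3 tissues the control libraries were thus the ones with the higher Serinc3 level, and whether a property of the control mice or of their preparation had a part in this was not tested. Actb, which encodes beta-actin and was named after its values were seen, was below control in all 14 dura clusters, with log2 ratios from -1.50 in Granulo_1 to -0.28 in prolif_cells, and passed 2-fold in 3 of them. In the pia Actb was at least 2-fold lower in 6 of 14 clusters, and in brain 24 h replicate 1 over control brain in 0 of 7. In brain 24 h replicate 2 over control brain it was 2-fold higher in 2 of 7, with a median of 0.56, so its direction was not shared by these libraries. The part of kit chemistry in the replicate 2 ratios was not tested.

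**Figure D1:**
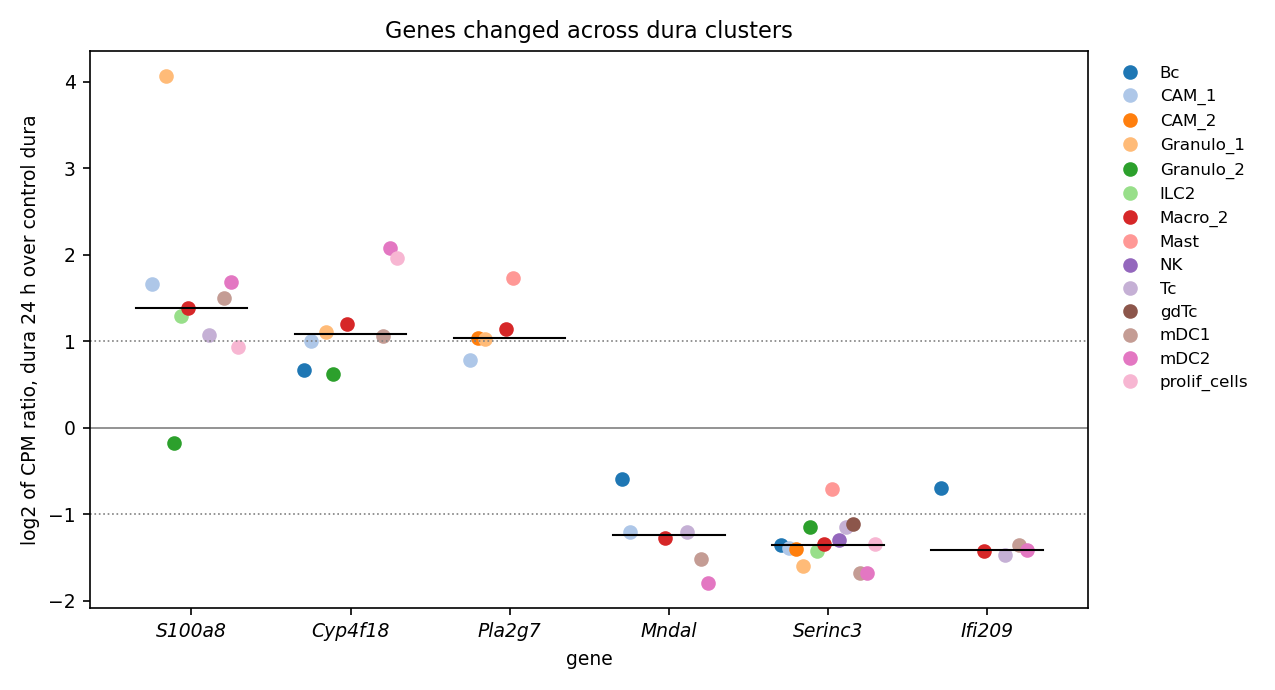
Log2 ratio of dura 24 h over control dura (vertical axis) for 6 of the 7 genes changed across clusters (horizontal axis), 1 point per cluster that measured the gene, with the median as a black line and 2-fold as dotted lines. The 14 Serinc3 points lie between -1.68 and -0.71, while the S100a8 points spread from -0.17 in Granulo_2 to 4.07 in Granulo_1.

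Of the other genes that were lower across clusters, Ifi209 and Mndal are known targets of the interferon pathway. Ifi209 (chr1:173630917-173647928) was lower in 4 of 5 clusters with a median of -1.41, and Mndal (chr1:173849126-173942491) in 5 of 6 with a median of -1.24. Both are neighbouring members of the interferon-inducible p200 family, whose sequences are alike, so reads may be split between them and other members.

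Of the 3 genes higher across clusters, S100a8, a calcium-binding protein made in bulk by neutrophils (chr3:90668978-90670035), was higher in 7 of 9 clusters. In Tc it went from 25 UMIs (68.6 CPM) in 24 of 329 cells to 89 UMIs (146 CPM) in 83 of 640 cells, and in ILC2 from 21 UMIs (75.7 CPM) to 116 UMIs (189 CPM). T cells and ILC2 are not known to make this protein, and in the neutrophil cluster Granulo_2 itself the level was 149763 CPM in control dura and 132778 CPM at 24 h. Over all annotated cells S100a8 made up 9279 CPM in control dura and 13374 CPM at 24 h, and Granulo_2 made up 5.19% [4.40 to 6.08] and 7.95% [7.17 to 8.77] of the cells. The summed level of 7 neutrophil markers in Tc was 414 CPM in control dura and 851 CPM at 24 h, and in NK 407 and 811 CPM. In Granulo_1, which had the largest S100a8 ratio, S100a8 went from 22 to 660 UMIs, S100a9 from 5 to 43 and Ngp from 16 to 61. The S100a8 UMIs of Tc and ILC2 are not assigned to these cells or to neutrophil RNA. The part of neutrophil RNA in the other clusters was not tested.

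**Figure D2:**
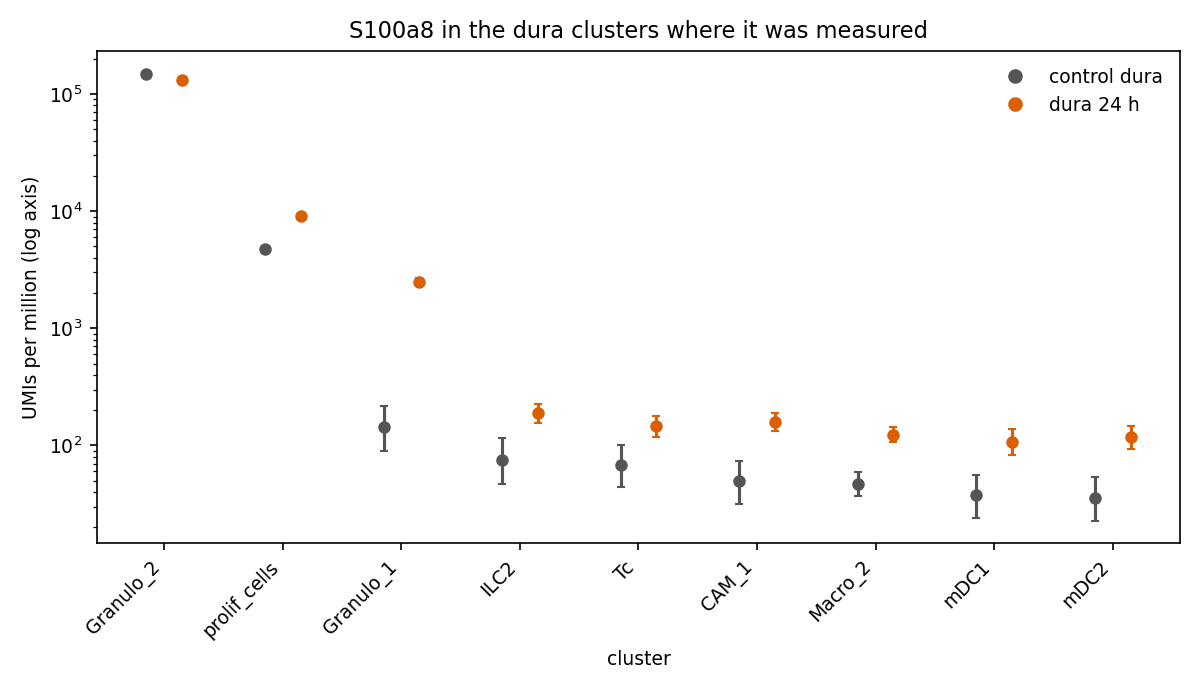
S100a8 level in CPM on a log axis for the 9 clusters that measured it, in control dura (grey) and dura 24 h (orange), with exact 95% Poisson intervals. Granulo_2 stands at 149763 and 132778, and 6 clusters lie below 200 in both, each with the higher value at 24 h.

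Cyp4f18, a cytochrome P450 that acts on leukotriene B4 in myeloid cells (chr8:71988482-72009626), was higher in 6 of 8 clusters with a median of 1.09. Its largest ratio was in mDC2, from 42 UMIs (65.6 CPM) in 24 cells to 188 UMIs (280 CPM) in 88 cells. In Macro_2 Cyp4f18 went from 350 to 835 UMIs, in 195 of 588 and 324 of 622 cells, and the log2 ratio was 1.20 [1.02 to 1.38]. Pla2g7, the secreted phospholipase that breaks down platelet-activating factor (chr17:43568098-43612201), was higher in 4 of 5 clusters with a median of 1.04. It stood at 481 CPM in control dura and 1061 CPM at 24 h in Macro_2, and at 674 and 2262 CPM in mast cells. In the pia, Cyp4f18 had a median of 0.82 over 4 clusters and Pla2g7 of 0.77 over 4. Between the 2 brain 24 h libraries, as replicate 2 over replicate 1, Cyp4f18 had a median of -1.575 and Pla2g7 of -1.643. Each was at least 2-fold lower in 2 of 2 clusters there. These 2 libraries thus differed in these genes by more than the dura medians, over 2 clusters. Their barcode starts differ as well, so a difference between replicates and one of kit chemistry cannot be told apart here.

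The genes of the interferon response had lower levels in the dura at 24 h than in control dura in several clusters. Of 150 measured pairs of an interferon response gene and a cluster, 50 were lower (33.3%) and 2 higher (1.33%), and 123 had a ratio below 0. The list was drawn up with earlier results of these data known, so its counts are a description and not independent support. The 2 higher pairs were both Ifitm2, in mast cells and mDC1. At least 1 cluster showed a lower level for 24 of the 38 measured genes of the list. In Macro_2 18 of 36 were lower against 1.83% of all 4320 genes measured there, with a median log2 ratio of -0.98. In Tc 11 of 20 were lower against 1.69% of 1952 genes, with a median of -1.12. In mDC2 8 of 18 were lower (all genes: 2.44% of 2373), in Granulo_1 5 of 8 (3.24% of 833), in mDC1 4 of 17 (2.00% of 2444) and in CAM_1 2 of 15 (2.09% of 2006). In gdTc 1 of 6 and in prolif_cells 1 of 6 were lower, against 0.742% of 1213 and 4.12% of 1263 genes. No member was 2-fold lower in Bc, Granulo_2, ILC2 or NK, where 4 each were measured, in CAM_2 with 6 or in mast cells with 2.

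The promoters of 4 of these genes are shown because a motif was found in some members and not in others. The interferon-stimulated response element is bound by interferon-activated transcription factors, and a simple form of it (GAAANNGAAA, either strand) was searched in the 250 bases before and 50 after each RefSeq start on GRCm38.p6. It was found for 12 of 18 list genes that were lower in at least 1 cluster and had a promoter (66.7%). It was found for 3 of 11 measured members that were lower in none (27.3%), and for 19 of 35 genes of the whole list (54.3%). Of all 27025 genes 1079 held it (3.99%). The list was made of interferon response genes, so its share above that of all genes is not a result of these data. The difference between lower and other members was not tested. The shorter motif TTCNNNGAA, on either strand, was found for 5 of the 18 (27.8%), for 4 of the 11 (36.4%) and for 9.55% of all genes. The last 150 bases before the start are printed 5′ to 3′ along the gene's strand, with matches to the first motif in capitals. They are Isg15 at chr4:156200819-156200968 (minus strand), Ifit1 at chr19:34640739-34640888 (plus), Gbp2 at chr3:142620513-142620662 (plus) and Irf7 at chr7:141266425-141266574 (minus), which holds no match in this window:
Isg15: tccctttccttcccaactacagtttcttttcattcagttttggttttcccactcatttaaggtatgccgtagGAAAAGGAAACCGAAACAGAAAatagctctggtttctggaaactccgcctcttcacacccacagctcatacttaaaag
Ifit1: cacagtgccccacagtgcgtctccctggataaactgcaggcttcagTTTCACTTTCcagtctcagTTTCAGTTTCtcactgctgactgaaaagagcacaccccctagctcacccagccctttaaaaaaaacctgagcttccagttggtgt
Gbp2: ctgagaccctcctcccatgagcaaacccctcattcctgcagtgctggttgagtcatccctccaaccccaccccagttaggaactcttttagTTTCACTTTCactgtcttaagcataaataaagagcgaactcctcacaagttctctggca
Irf7: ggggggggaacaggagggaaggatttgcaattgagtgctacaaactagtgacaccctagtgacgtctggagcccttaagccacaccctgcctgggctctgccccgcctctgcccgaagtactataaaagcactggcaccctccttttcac

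Irf7, the transcription factor that amplifies type I interferon production, was lower in 5 of 7 clusters. In mDC2 it went from 84 UMIs in 36 of 206 cells (131 CPM) to 6 UMIs in 6 of 222 cells (8.94 CPM), a log2 ratio of -3.77 [-5.36 to -2.69]. In mDC1 Irf7 stood at 180 and 54 UMIs (281 and 95.2 CPM), and in Tc at 85 and 43 UMIs (233 and 70.7 CPM). Dendritic cells and T cells thus both had lower Irf7 levels at 24 h. Isg15, an interferon-induced ubiquitin-like protein, was lower in Tc, from 104 UMIs (285 CPM) to 67 UMIs (110 CPM). Its log2 ratio was -0.78 in Macro_2 and 0.03 in ILC2, so it did not pass 2-fold there. Ifit1, which binds viral RNA, went in Tc from 83 UMIs in 25 cells to 36 UMIs in 15 cells, a log2 ratio of -1.93, with 54.2% and 66.7% of the UMIs in 5 cells. Ifi27l2a had its lowest ratio in Tc too, at -2.06, and Rtp4 was lower in all 4 clusters that measured it.

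Among targets of interferon gamma, Cxcl9, a chemokine for activated T cells, was at 88 UMIs in 19 cells of Macro_2 in control dura and at 2 UMIs in 2 cells at 24 h. In mDC2 Cxcl9 stood at 60 UMIs (93.7 CPM) in control dura and 10 UMIs (14.9 CPM) at 24 h. Gbp2, a guanylate-binding protein of cell-autonomous defence, was lower in both clusters that measured it, from 112 to 35.3 CPM in Macro_2 and from 142 to 35.7 CPM in mDC2. Irf1, an early interferon target, was lower in 3 of 5 clusters, with ratios of -1.84 in mDC1, -1.61 in CAM_1 and -1.28 in Macro_2. Cxcl10, a related chemokine, was lower in Macro_2 at -1.02 and had a ratio of 0.44 in mDC2. Members that did not take this direction included Slfn2, with a median of 0.17 over 12 clusters, and Ifitm2, with a median of 0.35 over 11. Ifitm1, of the same gene family as Ifitm2, was not on the list, and its higher levels in mDC1 and Granulo_2 are given below.

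**Figure D3:**
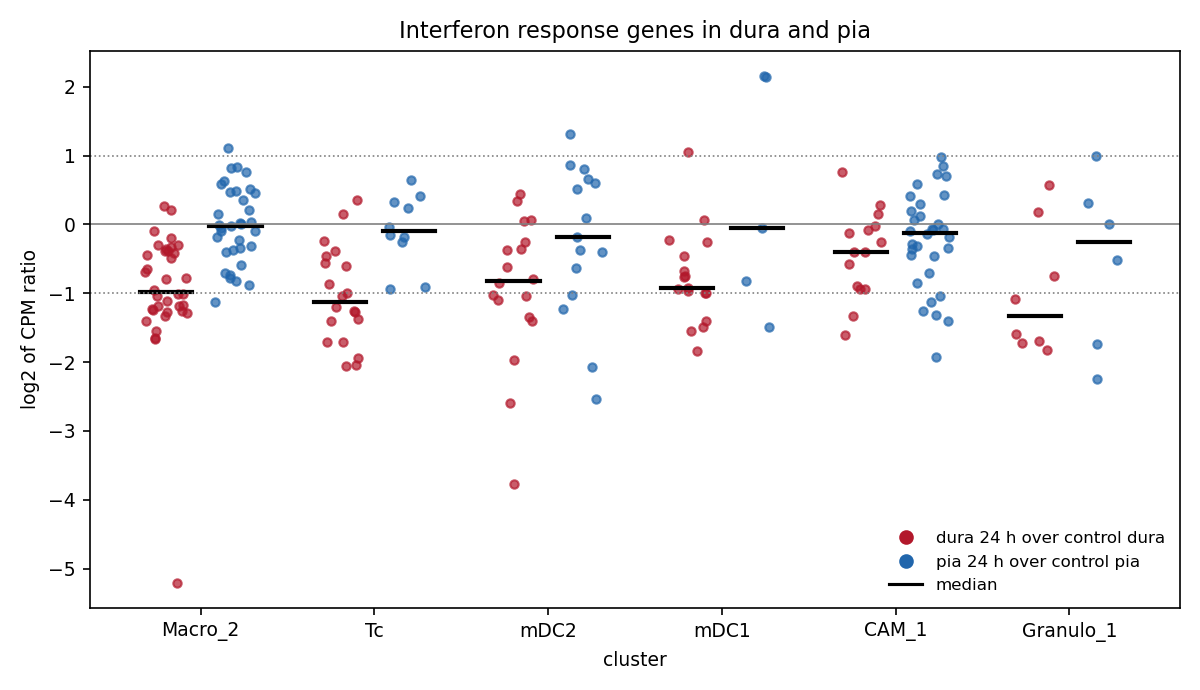
Log2 ratio of stroke over control (vertical axis) of each measured interferon response gene in 6 clusters (horizontal axis), in dura (red) and pia (blue), with medians as black lines and 2-fold as dotted lines. The dura median of Macro_2 is -0.98 and the pia median -0.02. In Tc they are -1.12 and -0.10.

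In the pia the medians of the same list in these clusters lay between -0.26 and -0.02. These 6 clusters were those with the most lower members in the dura. Over all pia clusters 19 of 132 pairs were lower (14.4%) and 12 higher (9.09%). The median of these pairs was -0.09, against 0.09 for all measured pia pairs. The shares of all pia pairs that were lower or higher are not given here, so these percentages have no matching background. Pia medians in other clusters ranged from -1.08 in Micro_3 (3 genes) to 1.10 in stress_Myeloid (4 genes). CAM_2 had a median of -0.57 over 11 genes in the pia and -0.43 over 6 in the dura. In Macro_2 1 of 34 members was at least 2-fold lower against 1.85% of all genes there, and in Tc 0 of 10 against 1.77%. In mDC2 4 of 15 were lower (all genes: 4.68%), in mDC1 1 of 5 (4.80%) and in CAM_1 6 of 32 (3.80%). In Granulo_1 of the pia 2 of 6 were lower with a median of -0.26 (all genes: 8.87%). The difference between the tissues has no test, since each side has 1 library, and the members measured are not the same in both. Isg15 in Macro_2 went from 99.6 to 177 CPM in the pia, and from 207 to 120 CPM in the dura.

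Some monocyte genes were also lower in some of these dura clusters, but the monocyte list did not share a direction. Over all dura clusters 12 of its 71 pairs were lower (16.9%) and 7 higher (9.86%), with a median of -0.08. In Macro_2 Plac8 went from 331 to 69 UMIs and Ly6c2 from 96 to 20, and of 10 measured genes of the monocyte list 2 were lower and 1 higher. After leaving out all cells with a UMI of Ly6c2 or Plac8, a step chosen after the values were seen, 11 of 33 interferon genes were lower in Macro_2 with a median of -0.77, and 8 of 14 in Tc with a median of -1.30. In mDC2 3 of 14 were lower and in mDC1 0 of 4. Granulo_1 was left with too few cells. Over all clusters the count of lower pairs was 24 in these cells, against 50 of 150 measured pairs in all cells. Fewer members were measured after this step, for instance 4 against 17 in mDC1. The step left out 67.8% of the mDC1 cells in control dura and 72.9% at 24 h, and 29.5% and 20.8% of the Tc cells. It also left out 28.4% and 19.2% of the NK cells and 68.5% and 62.1% of the Granulo_2 cells, so it did not pick out monocytes alone. The counts of 24 and 50 lower pairs are therefore not on the same base. The share of lower genes among all genes in the kept cells is not given here.

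ILC2 held more Il5, Calca and Csf2 at 24 h and less Ccl1. Of 1316 genes, 24 were higher (1.82%) and 29 lower (2.20%). Of 16 measured genes of the type 2 and ILC2 effector list 4 were higher and 1 lower. This list too was drawn up with earlier results of these data known, so its count is a description only. Il5, the cytokine that supports eosinophils, went from 42 UMIs in 16 of 286 cells (152 CPM) to 453 UMIs in 92 of 673 cells (737 CPM), a log2 ratio of 2.27 [1.83 to 2.78]. Calca, the precursor of calcitonin gene-related peptide, went from 418 UMIs in 124 cells (1508 CPM) to 3677 UMIs in 505 cells (5986 CPM), a ratio of 1.99 [1.84 to 2.14]. Csf2, which encodes GM-CSF, stood at 186 UMIs in 52 cells (671 CPM) and 1214 UMIs in 216 cells (1976 CPM). All 3 were thus carried by a larger share of the cells at 24 h and stood at higher levels.

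Ramp3, a co-receptor subunit for peptides of the calcitonin family, was higher in ILC2 (894 to 1849 CPM), in mDC2 (90.6 to 296 CPM) and in Macro_2 (10.5 to 29.6 CPM). The other subunit on the list, Ramp1, had ratios between -0.47 and 0.41 over 8 clusters. Ccl1, a chemokine for CCR8-bearing cells, went the other way, from 505 UMIs in 84 cells (1821 CPM) to 178 UMIs in 48 cells (290 CPM) in ILC2. Areg, an epidermal growth factor receptor ligand, stood at a ratio of -0.22, the lineage factor Gata3 at -0.39 and Rora at 0.38, and none of them passed 2-fold.

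Outside the list, Plaur, the urokinase receptor, was at 49 UMIs in 34 ILC2 in control dura and 397 UMIs in 215 ILC2 at 24 h. Dnajb1, a heat shock co-chaperone, was at 37 and 280 UMIs. Myo6, an unconventional myosin, went from 64 to 14 UMIs (231 to 22.8 CPM) and Serpinb1a, a protease inhibitor, from 66 to 32 UMIs. In ILC2 of the pia, Calca had a ratio of 2.06 and Csf2 of 3.03, while Il5 stood at 1 UMI in control pia and 321 UMIs at 24 h.

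**Figure D4:**
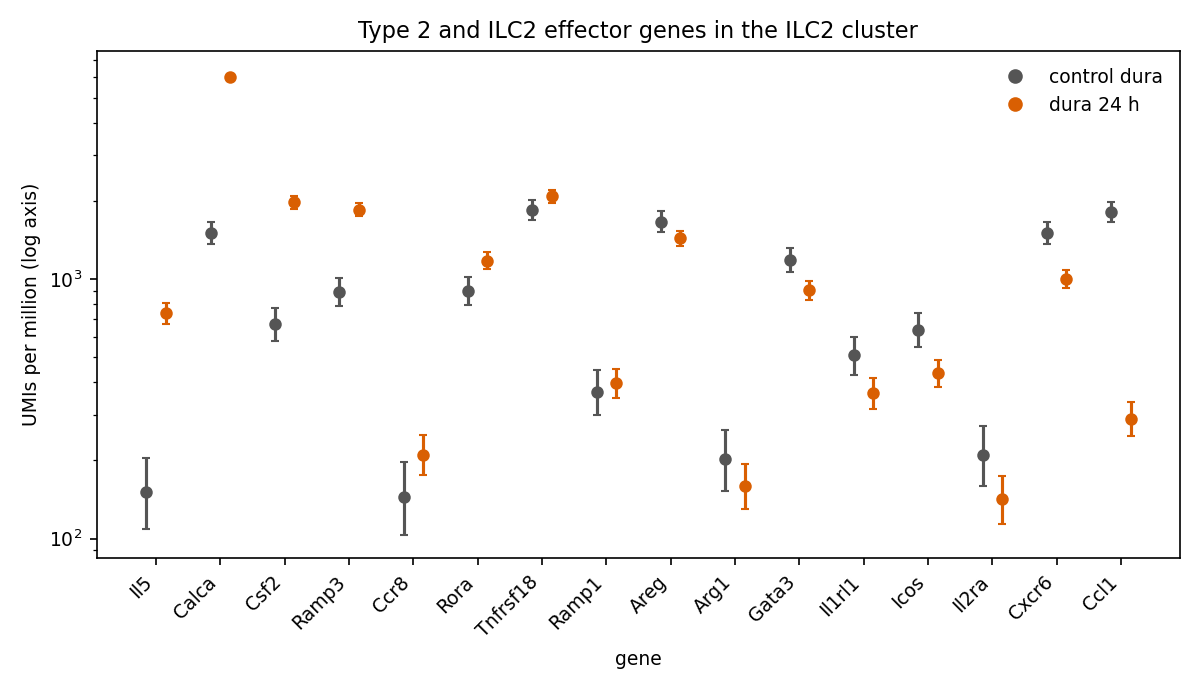
Level in CPM, on a log axis, of the 16 measured type 2 and ILC2 effector genes in the ILC2 cluster, ordered by ratio, in control dura (grey) and dura 24 h (orange) with exact 95% Poisson intervals. Il5, Calca, Csf2 and Ramp3 lie above control and Ccl1 below it, by at least 2-fold.

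In the macrophage clusters, 40 of 2006 genes were higher (1.99%) in CAM_1, 10 of 683 (1.46%) in CAM_2 and 54 of 4320 (1.25%) in Macro_2. Lower genes numbered 42 in CAM_1, 11 in CAM_2 (1.61%) and 79 in Macro_2. Slc7a11, the cystine importer of the glutathione pathway, was higher in 3 of the 4 clusters that measured it. It went from 49 to 372 UMIs in Macro_2, in 38 and 138 cells (32.1 and 234 CPM), from 9 to 111 UMIs in CAM_1 and from 18 to 115 UMIs in mDC2. Spp1, which encodes osteopontin, went from 7 UMIs in 6 cells to 101 UMIs in 33 cells in CAM_1, with ratios of 2.97 there, 1.74 in Granulo_2 and 1.17 in Macro_2. Lgals3, a galectin of phagocytes, went in CAM_1 from 38 UMIs in 24 cells to 309 UMIs in 100 cells.

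Other large ratios of the macrophage clusters rested on few cells. Cxcl13, a B cell chemokine, was at 1 UMI in CAM_1 in control dura and 178 UMIs in 6 cells at 24 h, and in Macro_2 at 0 and 192 UMIs, of which the 5 cells with the most held 90.1%. Against the 3 counts that a count of 0 allows in the control sum, this was at least 61.5-fold higher. Saa3, an acute phase protein, was at 0 UMIs in Macro_2 in control dura and 84 in 11 cells at 24 h. Ctsk, a collagen-degrading protease, went in CAM_2 from 3 UMIs to 156 UMIs in 5 cells. Acp5, an osteoclast and macrophage phosphatase, went there from 17 UMIs in 2 cells to 160 UMIs in 17 cells, of which 5 held 91.2%. Ccl3 and Ccl4, inflammatory chemokines of macrophages, were found in more cells of CAM_2. Ccl3 was at 11 and 115 UMIs in 10 and 33 cells, and Ccl4 at 6 and 128 UMIs in 4 and 25 cells. At 24 h the 5 cells with the most still held 62.6% of the Ccl3 and 63.3% of the Ccl4 UMIs.

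Lower genes of CAM_1 included Egfl7, a vessel-associated secreted protein (57 to 20 UMIs, 123 to 25.0 CPM), Txnip, an inhibitor of thioredoxin (75 to 27 UMIs), and the immediate early factor Egr1 (219 to 89 UMIs). In CAM_2 the iron exporter Slc40a1 went from 57 to 34 UMIs (425 to 113 CPM) and the flow-responsive factor Klf2 from 156 to 117 UMIs (1163 to 390 CPM). Ccl17, a chemokine for CCR4-bearing cells, went from 96 UMIs in 13 cells to 8 UMIs in 8 cells in Macro_2, but the 5 cells with the most held 91.7% of the control UMIs. The haemoglobin gene Hba-a2 was at 1 UMI in Macro_2 in control dura and 151 UMIs in 7 cells at 24 h. The summed erythroid level of that cluster was 9.82 CPM in control dura and 451 CPM at 24 h, against 19.5 and 129 CPM over all annotated cells. In CAM_2 it was 14.9 and 426 CPM, and in CAM_1 17.2 and 20.0 CPM. The part of erythroid RNA in other ratios of these clusters was not tested.

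Of the dendritic cell clusters, mDC1 had 29 higher genes (1.19%) and 49 lower, and mDC2 had 45 higher (1.90%) and 58 lower. Ccl17 went from 361 UMIs in 57 cells to 1482 UMIs in 84 cells in mDC2 (564 to 2207 CPM), a ratio of 1.97 [1.80 to 2.14], and from 14 to 97 UMIs in mDC1. In mDC1 the Ccl17 UMIs lay in 8 and 11 cells, and the 5 cells with the most held 78.6% and 87.6% of them. The direction of Ccl17 in both dendritic clusters was opposite to that in Macro_2, but in mDC1 and Macro_2 it rested on few cells. In mDC1 Ifitm1, a marker of that cluster, went from 52 UMIs in 22 cells to 330 UMIs in 46 cells. In control dura its level was highest in mDC2. The other mDC1 marker, Clec9a, went from 101 to 63.5 CPM in mDC1. Cd209a, the marker of mDC2, went there from 341 to 97 UMIs and the monocyte gene Ly6c2 from 202 to 51. Whether the cells of mDC1 changed or the genes within them was not tested. The metallothionein Mt2 went in mDC1 from 21 to 85 UMIs. In mDC2 Fabp5, a fatty acid carrier, went from 26 UMIs in 19 cells to 174 UMIs in 27 cells, and Gpr141, an orphan receptor, from 66 to 18 UMIs.

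In Granulo_1, 34 of 833 genes were higher (4.08%) and 27 lower. C5ar1, the receptor for complement fragment C5a, went from 21 UMIs in 12 of 66 cells to 247 UMIs in 70 of 109 cells, a ratio of 2.72 [2.10 to 3.46]. Macrophage genes were higher as well, with C1qb from 26 to 418 UMIs and Pf4 from 11 to 121 UMIs, and of the 9 measured border macrophage genes 5 were higher. Saa3 was at 0 UMIs in control dura and 219 at 24 h, at least 41.7-fold higher. Of 11 measured monocyte genes 3 were lower and 1 higher, and 4 had ratios above 0. Genes of classical monocytes with lower levels included Plac8 from 691 to 271 UMIs (4533 to 1015 CPM), Ms4a4c from 260 to 92 UMIs and Ly6i from 63 to 7 UMIs. Most cells of this cluster held these monocyte genes in control dura, with Plac8 in 61 and Ms4a4c in 53 of 66 cells. At 24 h they were found in 68 and 50 of 109 cells. Macrophage genes and some monocyte genes thus moved inside this cluster, and a change in its cells and a change in its genes cannot be told apart.

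Granulo_2, the neutrophil cluster, had 14 of 1163 genes higher (1.20%) and 19 lower (1.63%). Wfdc17, a secreted protein of activated myeloid cells, went from 37 UMIs in 19 of 146 cells to 800 UMIs in 89 of 359 cells (107 to 1012 CPM). Hilpda, a lipid droplet protein induced by hypoxia, went from 13 UMIs in 13 cells to 178 UMIs in 105 cells, and Ifitm1 from 6 UMIs in 4 cells to 211 UMIs in 72 cells. Cited2 was lower, from 62 to 37 UMIs (179 to 46.8 CPM). Of 24 measured genes of mature neutrophils only G0s2 was higher, at 1.07, and of the granule genes of immature neutrophils in this cluster none passed 2-fold.

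In Tc, NK and gdTc the share of higher genes was below the 1.62% of all pairs, as it was in Bc, CAM_2, Granulo_2, Macro_2 and mDC1. Higher and lower genes numbered 9 (0.461%) and 33 of 1952 in Tc, 8 (0.794%) and 13 (1.29%) of 1007 in NK, and 1 (0.0824%) and 9 of 1213 in gdTc. In Tc, Ctla4, an inhibitory receptor high on regulatory T cells, went from 72 UMIs in 55 cells to 26 UMIs in 25 cells (198 to 42.7 CPM). In NK the chemokine receptor Ccr2 went from 62 to 33 UMIs (346 to 130 CPM), and Actb from 1025 to 522 UMIs. In gdTc the single higher gene was Dpm3, an enzyme subunit of glycosylation, at 28 and 93 UMIs.

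B cells had 14 of 1011 genes higher (1.38%) and 9 lower (0.89%), and 5 of the 8 genes with the most extreme ratios were immunoglobulin genes. Ighg1 was at 0 UMIs in control dura and 15782 UMIs at 24 h, of which 5 cells held 99.8%. Ighg2b went the other way, from 3268 UMIs in 9 cells to 82 UMIs in 7 cells. Igha stood at 22392 and 15856 UMIs, and Jchain, the joining chain of secreted IgA and IgM, at 20891 and 22387 UMIs (67202 and 30825 CPM). Of the 153 and 438 cells of Bc, 44 and 49 held Igha and 38 and 42 held Jchain. Cells with either gene were thus a smaller share of the cluster at 24 h. Whether the make-up of Bc or the levels within its cells changed was not tested. The 5 cells with the most held 73.8% and 87.1% of the Igha UMIs. Mast cell markers were higher in this cluster too, with a summed level of 90.1 CPM (28 UMIs) in control dura and 467 CPM (339 UMIs) at 24 h over 6 markers, and Tpsb2, a mast cell tryptase, went from 8 UMIs in 7 cells to 170 UMIs in 28 cells. Over all annotated cells the same markers stood at 2130 and 2867 CPM, and their part in other B cell ratios was not tested. Prg2, a granule protein, was lower in Bc, at 268 and 202 UMIs (862 and 278 CPM). Ighg1 was also found at 66 UMIs in 61 cells of Macro_2 at 24 h and at 0 in control dura.

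Mast cells had 15 of 333 genes higher and 15 lower (4.50% each). Immediate early genes, which are switched on within minutes of a stimulus and also by tissue digestion, were lower for 8 of 18 measured members. This was not seen in mast cells alone. Over all clusters 26 of 251 pairs of this list were lower (10.4%) and 3 higher (1.2%). In CAM_1 6 of 27 were lower and in mDC2 4 of 26, while in Bc 0 of 13 were and the median was 0.53. In mast cells Fos went from 693 to 239 UMIs (8338 to 1663 CPM) and was detected in 57 of 63 and 55 of 93 cells. Zfp36, which destabilizes cytokine mRNA, went from 81 to 38 UMIs, and Klf2 from 235 to 132 UMIs. The steroid enzyme gene Cyp11a1 was higher, from 49 UMIs in 29 cells to 276 UMIs in 76 cells. Prg2, an eosinophil and mast cell granule protein, was at 0 UMIs in control dura and 433 in 1 cell at 24 h.

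The prolif_cells cluster, of 62 and 43 dividing cells, had 57 of 1263 genes higher (4.51%) and 52 lower. Its most extreme ratios included lineage genes carried by few cells, such as Prss34, a basophil protease, at 1 UMI in control dura and 1535 UMIs in 4 cells at 24 h, and Elane, a neutrophil precursor protease, at 538 and 68 UMIs. Apoe, a lipid carrier made by macrophages, was found in 42 of 62 and 41 of 43 cells, at 70 and 256 UMIs. The 5 cells with the most held 24.3% of its UMIs in control dura and 55.5% at 24 h. Of 7 measured members of the MHC class II list 5 were lower, among them H2-Eb1 at -1.66 and Cd74 at -1.43. A change in which lineages were dividing and a change within them cannot be told apart here.

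Of the 1724 genes measured in at least 5 clusters, 52 were 2-fold different in 1 cluster and within 1.5-fold in all others (3.02%), and 19 of the 52 were in prolif_cells. C5ar1 in Granulo_1 differed most from the other clusters, where its ratios lay between -0.16 and 0.28. Gadd45g, a growth arrest and stress gene, was higher in mDC1 at 1.43, against a median of -0.17 in 5 others. Ell2, an elongation factor of antibody secretion, was higher in mDC2 at 1.34, and St3gal5, the enzyme that makes the ganglioside GM3, in Macro_2 at 1.26. Ube2v2, a ubiquitin-conjugating enzyme variant, was lower in mast cells at -1.62. ILC2 had no gene of this kind, and Il5, Csf2 and Ccl1 were measured in ILC2 alone.

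The counts of further lists, drawn up in the same way, are read against 1.62% of all pairs higher and 2.03% lower. Genes of mature neutrophils were higher in 32 of 104 pairs and lower in 0, beside the higher summed level of neutrophil markers given above. Genes of the glucocorticoid response did not share a direction, with 11 of 109 pairs higher and 13 lower. The lower pairs were those of Tsc22d3, a transcriptional target of glucocorticoids that was lower in 7 of 14 clusters, Txnip, lower in 4 of 4, and Dusp1, lower in 2 of 14 and higher in Granulo_2. The higher pairs included Il1r2, the decoy receptor for interleukin 1, in 4 of 6 clusters. MHC class I genes had a median of -0.29 over 147 pairs, of which 4 were lower (2.72%, near that of all pairs) and 0 higher. MHC class II genes had 9 of 92 pairs lower and 0 higher. The signature genes of stroke-associated myeloid cells, which the study chose on libraries that include these, were higher in 15 of 83 pairs and lower in 0. Heat shock genes were higher in 5 of 143 pairs (3.50%) and genes of glycolysis and hypoxia in 4 of 137 (2.92%), with none lower. Few pairs of these lists thus passed 2-fold. Their medians were 0.15 and 0.28, against 0.02 for all pairs, and 52 and 35 of their pairs had ratios below 0.

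The mitochondrially encoded genes had a median of -0.32 over 125 pairs and none passed 2-fold. Their share of UMIs was lower at 24 h in all 14 clusters, for instance 1.67% and 1.37% in Macro_2 and 2.94% and 2.43% in Tc. Genes of cytosolic ribosomal proteins had a median of 0.13 over 1092 pairs, and 8 were higher, all in mast cells. Markers of fibroblasts and neurons were not measured in any cluster, at 32.6 and 36.0 CPM summed over 7 fibroblast markers and 11.5 and 16.4 CPM over 6 neuron markers in all annotated cells. The part of these values in the ratios above was not tested.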

How the data were processed

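Sorted dura leukocytes of 2 libraries were analysed, with pia and brain libraries for side-by-side values. The authors made the deposited UMI counts with Cell Ranger 6.0 on mm10 per the labels, and left them without normalization. Per the study's methods, the authors then filtered cells, removed doublets with scDblFinder, integrated libraries and named clusters, and these deposited cluster names were used. No doublet caller was run here. Of 3104 and 5056 barcodes in the dura files, 293 and 538 carried no cluster name and were not used.

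UMIs were summed per library and cluster with Python 3.11.15, numpy 2.4.6, scipy 1.17.1 and pandas 2.3.3, and plotted with matplotlib 3.10.9. Counting intervals are exact Poisson, or Clopper-Pearson for shares and ratios. A count of 0 was taken to allow 3 counts. The total per library, 6867696 and 10645238 UMIs, sets this precision. Members, gene lists and limits were chosen with earlier results of these data known. Of genes changed across clusters, up to 12 in each direction were eligible to be named. So were 12 genes changed in 1 cluster, the 4 highest and the 4 lowest ratios of each cluster, and list members past 2-fold, leaving out predicted, Rik, mitochondrial and ribosomal names. Genes that a statement on a list needs were also named. Positions are from GENCODE M21 on GRCm38 and promoters from RefSeq on GRCm38.p6. The steps were tested on simulated data. Alternatives covered the UMI minimum, fold limit, scaling, cell weighting, depth and clusters used. One gene that was lower across clusters is counted but not reported here.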

Additional observations from a re-analysis of the deposited data

Results flagged for a closer look

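The following genes, named for their extreme ratios in the dura, were at least 2-fold different the opposite way in the same cluster of the pia. Each side has 1 library, so the difference between tissues was not tested. Values are log2 ratios of 24 h over control.

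In Bc, Igha was at -1.72 in the dura and 11.99 in the pia, and Jchain at -1.12 and 2.42. The 5 Bc cells with the most Igha UMIs held 73.8% of them in control dura and 87.1% in dura 24 h. Pia UMIs and cells of Igha are not given here. Whether its pia ratio rests on few cells or on the 0.5 UMIs added to each sum was not tested. In CAM_2, Ccl4 was at 3.14 in the dura and -1.18 in the pia. In Granulo_1, C1qb was at 3.17 and -3.10, Pf4 at 2.59 and -3.36, and Plac8 at -2.16 and 1.07. In Macro_2, Ccl17 was at -3.56 and 3.76, and Plac8 at -2.31 and 4.41. In mDC1, Cd209a was at -1.63 in the dura and 2.67 in the pia.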

How the results depend on the processing

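Each alternative is given by its counts of genes higher across clusters (3 in the report), lower across clusters (4), changed in 1 cluster (52), all pairs past the fold limit (799) and lower interferon response pairs (50), in this order. A minimum of 10 expected UMIs gave 7, 12, 221, 3572 and 127, and one of 100 gave 0, 1, 9, 210 and 14. A 1.5-fold limit gave 16, 19, 530, 3410 and 81, and a 4-fold limit 0, 0, 1, 85 and 6. Cells thinned to 500 UMIs gave 0, 1, 11, 194 and 6, with 0 cells left out. Asking for every measured cluster left 0 genes higher and 0 lower. Genes higher across clusters numbered 1 with the median ratio set to 0, with every cell weighted equally, with cells of at least 1000 UMIs and with clusters of at least 100 cells, the last of which gave 30 genes changed in 1 cluster. Leaving out each cluster in turn gave 1 to 4 genes higher and 2 to 5 lower, with 1 higher without Granulo_1 and 2 lower without Macro_2, Tc, mDC1 or mDC2. Cells without a Ly6c2 or Plac8 UMI, chosen after seeing the data, gave 1 higher, 1 lower and 24 interferon pairs, with fewer interferon genes measured. Higher minimums leave fewer genes measured, and thinning fewer UMIs. Why the other counts moved was not tested.

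Of 366 named ratios, none changed sign under another total, a median of 0 or equal weights for cells, and none that were still measured did so with deeper or thinned cells. Those that moved beyond their counting interval numbered 29 of 366 with equal weights for cells and 42 of 107 with thinned cells. With cells of at least 1000 UMIs, the share at 24 h minus that in control dura changed sign in percentage points for CAM_1 (1.85), CAM_2 (1.54), Mast (1.08), Micro_1 (0.26), Micro_2 (0.06), SAMC (0.14), NK (-0.76), Tc (-0.13) and gdTc (-0.95). No replicate could be left out and no paired analysis was possible because each group has 1 library.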
